A study of Capra hircus with 2 samples.

Results

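miR-378 is a microRNA (miRNA), a short RNA that guides Argonaute proteins to partly complementary mRNAs. Its members were taken from lists of distinct small RNA sequences (tags) of goat mammary gland: tags of at least 18 nt that began at base 1, 2 or 3 of a mature arm, matched it without mismatch and ran at most 3 nt past its end. For the 3p arm this gave 129 distinct tags in early involution and 165 in early lactation. For the 5p arm it gave 8 and 15. Together they were 137 of 259250 distinct tags in involution and 180 of 305711 in lactation.

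The early involution library represents dairy goats 5 days after weaning was forced in late lactation, on day 218 after parturition. The early lactation library represents day 10 after parturition. Each was made from mammary RNA of 5 goats mixed in equal parts, so there was 1 library per stage, no replicate and no test between the stages, and stage cannot be told apart from time since parturition or from library preparation. The labels name no breed, parity or other treatment. All intervals are 95% intervals for counting error alone.

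The miR-378 hairpin is processed from an intron of the gene for PGC-1 beta, a transcriptional coactivator of mitochondrial and fatty acid metabolism. In mouse, both arms are known to act against the metabolic programme of PGC-1 beta and to influence lipid storage. In human breast cancer cells the 5p arm is known to repress transcription factor partners of PGC-1 beta and to shift cells toward glycolysis. RefSeq's list of genes for the ARS1.2 goat assembly has 1 entry for MIR378, which lies inside the limits of PPARGC1B, the gene for PGC-1 beta. The host mRNA was not measured in these small RNA libraries.

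The mature arms are shown because every count below is made against them. Letters are as in the files (T for U), 5′ to 3′, with the seed, bases 2 to 8, in capitals.
miR-378-3p: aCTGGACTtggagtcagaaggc
miR-378-5p: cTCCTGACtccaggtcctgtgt
Each is the most abundant tag with its seed in both libraries, and each is 22 nt long. The predicted duplex of the arms from RNAduplex spanned bases 1 to 21 of each arm and held 18 base pairs, at -29.4 kcal/mol. Base 21 of each arm was unpaired in it. The 3p and 5p seeds differ.

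The depth was 7385833 clean tags in involution and 18031615 in lactation. Tags ran from 18 to 44 nt, and 88.9% in involution and 91.2% in lactation had 20 to 24 nt. Filtering had removed 14.03% of high-quality reads as 5′ adaptor contaminants in involution, against 0.0505% in lactation, and 4.14% against 0.920% as shorter than 18 nt. Their part in the results was not tested. Levels below are in tags per 1000000 clean tags (TPM). By seed, the most abundant epithelial family, that of miR-200b and miR-200c, stood at 14709 TPM in involution and 17928 in lactation, miR-375 at 5255 and 274 and miR-205 at 653 and 117. Of 4 epithelial seed families 3 were at least 2-fold higher in involution, of 5 leukocyte families 4 (miR-142-3p, miR-150, miR-223 and miR-342, with miR-142-5p under 10 TPM), of 3 erythroid families 2 and of 5 stromal families 2. Of all small RNAs tested, 33.6% were higher by the same limits. The families summed to 26255 TPM in involution and 20746 in lactation for epithelium, 994 and 218 for leukocytes and 3147 and 923 for erythroid cells. For stroma the sums were 331938 and 318651, nearly all of it miR-143 at 329507 and 317903. The higher stromal families were miR-145, at 1452 TPM in involution and 155 in lactation, and miR-214, at 190 and 33.3, and the other 3 lay between the limits. The part of these families in the level of miR-378 was not tested. The epithelial family of miR-141 fell short of 2-fold with median-of-ratios and TMM factors, at ratios of 1.85 and 1.87. In whole tissue, fewer cells of a type and less RNA per cell cannot be told apart.

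The 3p arm was one of the main small RNAs of the gland at both stages. It had 503244 reads in involution, or 68136 TPM (67948 to 68325), and 1278544 reads in lactation, or 70906 TPM (70783 to 71029). That was 6.81% of the involution library and 7.09% of the lactation library. The ratio of involution to lactation was 0.961 (0.958 to 0.964), a log2 ratio of -0.06, which is a difference beyond counting error but far under 2-fold. The tag identical to the mature sequence went the other way, with 53226 TPM in involution and 52196 in lactation, a ratio of 1.02.

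The 5p arm was scarce. It had 75 reads in involution, or 10.2 TPM (7.99 to 12.7), and 133 reads in lactation, or 7.38 TPM (6.18 to 8.74). Its ratio was 1.38 (1.02 to 1.84), with an interval just beyond equality. With median-of-ratios factors the ratio was 1.10 (0.815 to 1.47) and with TMM factors 1.11 (0.822 to 1.48), and these intervals include 1. Identical 5p tags numbered 42 in involution and 70 in lactation.

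The levels were read against 2058 small RNAs grouped from the tags by the same rule, each a leading tag with its end variants, that reached 10 TPM in at least 1 library. Calls needed a ratio of involution to lactation of 2 or more, or of 0.5 or less, and an interval that excluded 1. Neither arm of miR-378 met this, whereas 46.8% of the 2058 did: 33.6% were higher and 13.2% lower in involution. In numbers these were 692 higher and 272 lower. With median-of-ratios factors the split was 558 to 369 and with TMM factors 566 to 364. The median log2 ratio of the 2058 was 0.39, and the ratio of miR-378-3p stood at percentile 36.2 among them. Median-of-ratios factors moved every log2 ratio by -0.33 and TMM factors by -0.32, which put miR-378-3p at -0.39 and -0.37. The ratio of miR-378-3p to the median of all was the same under each.

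**Figure D1:**
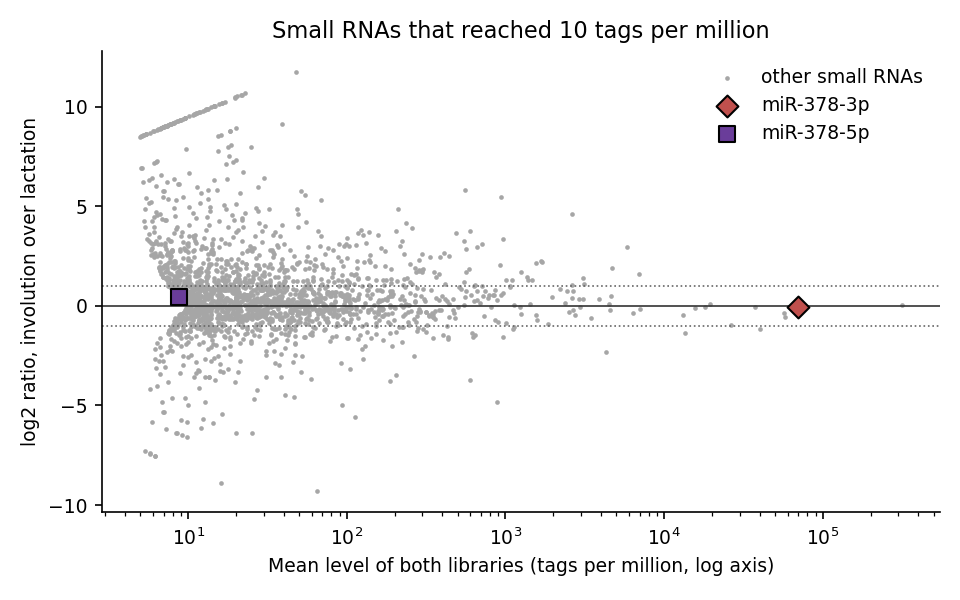
The log2 ratio of involution over lactation (y axis, with 0.5 reads added to each count) is plotted against the mean level of both libraries in TPM (x axis, log scale) for 2058 small RNAs. miR-378-3p (diamond) lies close to 0 at the far right, miR-378-5p (square) lies near the level limit of 10, and dotted lines mark 2-fold.

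miR-378-3p ranked 2 by reads in both libraries. The small RNA above it and the 2 just below it in mean level are shown with their seeds in capitals.
miR-143: tGAGATGAagcactgtagct
let-7, higher of the pair in lactation: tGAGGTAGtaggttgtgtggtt
let-7, higher of the pair in involution: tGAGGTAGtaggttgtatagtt
The miR-143 group, a miRNA of smooth muscle and stroma, stood at 318808 TPM in involution and 309788 in lactation. The let-7 group next in mean level, of a family that restrains growth, stood at 47048 in involution and 68017 in lactation, a ratio of 0.692 (0.689 to 0.694). The other let-7 group stood at 49886 in involution and 64190 in lactation, a ratio of 0.777 (0.774 to 0.780), so it was the higher of the pair in involution and the lower in lactation. In lactation the level of miR-378-3p was thus close to that of the higher let-7 group, and in involution it stood clearly above both; without replicates the order rests on counting error alone.

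Of the 45 small RNAs that reached 1000 TPM in both libraries, 5 had a log2 ratio closer to 0 than that of miR-378-3p. The median log2 ratio of these 45 was -0.05. The 3 whose log2 ratio lay nearest to that of miR-378-3p, over the 2 stages only, were the leading miR-191 group (difference 0.0014), the leading miR-146 group (0.00366) and 1 let-7 group (-0.00487).
miR-191: cAACGGAAtcccaaaagcagctg
miR-146: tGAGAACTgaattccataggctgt
let-7, nearest in ratio: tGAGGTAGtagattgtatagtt
Their ratios were 0.962 (0.938 to 0.986), 0.963 (0.957 to 0.970) and 0.958 (0.953 to 0.962). They were chosen for nearness in ratio, so the overlap of these intervals with that of miR-378-3p is no separate result.

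Other miRNA families with roles in fat and energy metabolism were read beside miR-378. Of 7 seed families linked to lipid metabolism, 5 reached 10 TPM, 3 were higher in involution, beside 33.6% of all 2058, and 2 lay between the limits, with a median log2 ratio of 1.97 against 0.39 for all 2058. The higher ones were miR-33, known to repress cholesterol export, at 59.4 TPM in involution and 9.82 in lactation, miR-130, a repressor of the adipogenic regulator PPAR gamma, at 182 and 46.4, and miR-335 at 28.97 and 5.99. The abundant ones were between: miR-103 and its relatives at 16157 in involution and 16491 in lactation, and miR-27 at 4136 and 2428. Of 9 families linked to thermogenic fat, 7 reached the level. The families miR-193, at 101 TPM in involution and 1.83 in lactation, and miR-455-3p, at 21.3 and 2.88, were higher, a share close to the 33.6% of all 2058, and 5 lay between, among them the most abundant, miR-27 and miR-155, with miR-155 at 690 in involution and 1199 in lactation. The median log2 ratio of this list was -0.60. Under the TMM and median-of-ratios scalings miR-155 passed the limit on the lower side, at ratios of 0.462 and 0.458, and no other call of either list changed. With miR-378-3p at -0.06, the level of this miRNA stayed nearer to equality than either list's median. This was not particular to it: miR-103 and its relatives, the most abundant family of the lipid list, had a ratio of 0.980. The higher families of the lipid list were scarce beside both.

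miR-378 is also abundant in skeletal muscle, so muscle families were read beside it. The miR-1 family stood at 1464 TPM in involution and 1899 in lactation, miR-499 at 24.1 and 1.72, and no miR-133 group reached 10 TPM. The muscle families summed to 1489 TPM in involution and 1900 in lactation. Their part in the level of miR-378 was not tested.

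The arms were present in very unequal amounts. There were 6710 reads of the 3p arm for each read of the 5p arm in involution (5353 to 8531) and 9613 in lactation (8111 to 11482). As a share of both arms, the 5p arm made up 0.149 per 1000 in involution (0.117 to 0.187) and 0.104 per 1000 in lactation (0.0871 to 0.123). The 5p share in involution was 1.43 times that in lactation (1.06 to 1.92), on 75 and 133 reads, so it lay just beyond counting error, with no measure of the spread between animals or preparations. These shares lie within each library and do not depend on scaling between them.

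The length of miR-378-3p was tightly set. Tags of 22 nt made up 79.2% of its reads in involution and 75.0% in lactation, 21 nt 6.24% and 6.31%, 23 nt 11.2% and 14.7%, and 24 nt 2.99% and 3.48%. Tags of 20 nt were 0.321% in involution and 0.428% in lactation. In the library as a whole 22-nt tags were fewer in involution than in lactation, at 35.7% and 44.4%, and 20-nt tags were more frequent, at 25.2% and 18.2%. miR-378-3p showed the opposite order at 22 nt. The library's lengths also depend on which small RNAs it held, the most abundant being the miR-143 group with a leading tag of 20 nt. These orders are therefore unlike measures. Of all 22-nt reads miR-378-3p held 15.1% in involution and 11.98% in lactation, a share that also depends on the other 22-nt reads. Of the distinct 3p tags, 122 were found at both stages, and these carried 99.9982% of the 3p reads in involution and 99.9922% in lactation.

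**Figure D2:**
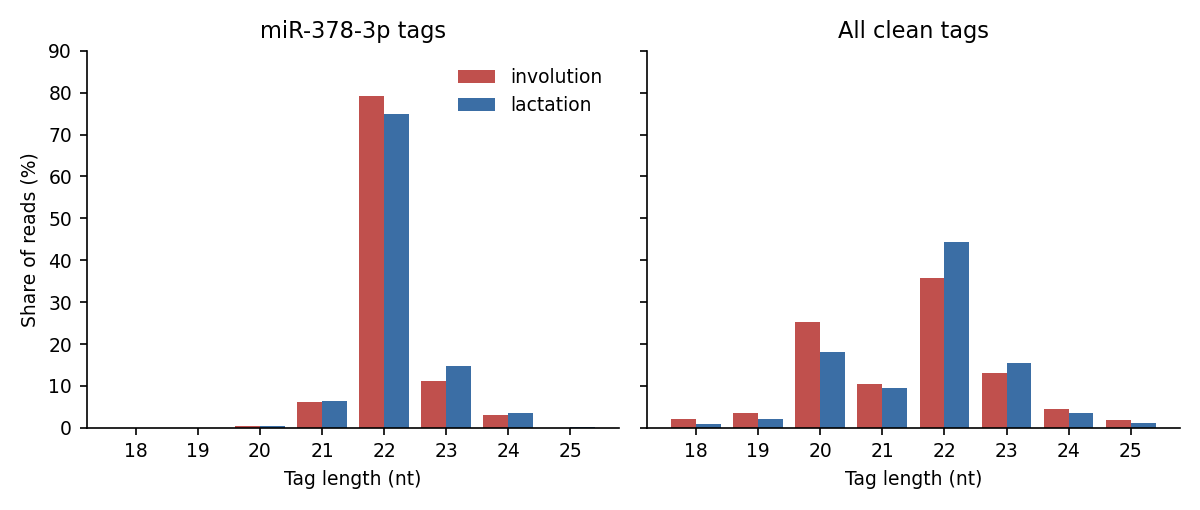
The share of reads (y axis, percent) is plotted by tag length in nt (x axis) for miR-378-3p at left and for all clean tags at right, in involution and lactation. At 22 nt the involution bar is the higher one for miR-378-3p (79.2% and 75.0%) and the lower one for all tags (35.7% and 44.4%).

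The start of the 3p arm, which sets its seed, was at base 1 in most reads. Tags that began at base 1 made up 92.86% of reads in involution and 93.33% in lactation. Tags that began at base 2 made up 7.03% in involution (6.96 to 7.10%) and 6.55% in lactation (6.50 to 6.59%), and tags that began at base 3 0.111% and 0.124%. The most abundant shifted tag is shown because its bases 2 to 8, in capitals, make another seed.
start at base 2: cTGGACTTggagtcagaaggc
It stood at 3471 TPM in involution and 2934 in lactation, a ratio of 1.18. Among 263 small RNAs with at least 1000 reads in both libraries, the share of shifted starts in miR-378-3p ranked 113 from the highest at both stages, with medians of 1.64% in involution and 0.865% in lactation. The share was higher in involution for 149 of the 263 and lower for 84, so miR-378-3p went with the larger number.

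The 3′ end differed more between the stages. Tags that ended exactly at the mature end made up 83.25% of 3p reads in involution (83.15 to 83.35%) and 77.8% in lactation (77.7 to 77.9%). Shorter tags made up 1.42% in involution (1.38 to 1.45%) and 2.54% in lactation (2.52 to 2.57%). Longer tags made up 15.3% in involution (15.2 to 15.4%) and 19.7% in lactation (19.6 to 19.7%). Both kinds of departure were therefore less frequent in involution. The share of longer tags was also lower in involution for 155 of the same 263 small RNAs and higher for 108. Of the 263, 89 had a difference at or below the -4.34 percentage points of miR-378-3p, itself included. For shorter tags 114 were lower and 116 higher, and 88 were at or below its -1.13 points. The forms that the comparison turns on are shown with the added bases in capitals.
1 A longer: actggacttggagtcagaaggcA
A and T longer: actggacttggagtcagaaggcAT
1 G longer: actggacttggagtcagaaggcG
1 T longer: actggacttggagtcagaaggcT
2 A longer: actggacttggagtcagaaggcAA
1 base shorter: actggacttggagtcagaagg
No sequence of the goat hairpin was used, so whether a base past the mature end is encoded in the gene or added after cleavage, as terminal nucleotidyl transferases are known to do, cannot be told apart here.

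Extension by A alone was the most frequent. Tags whose added bases were all A made up 9.36% of 3p reads in involution (9.28 to 9.44%) and 13.3% in lactation (13.3 to 13.4%), a ratio of 0.701. A single A made up 8.62% in involution and 12.2% in lactation, and 2 A made up 0.729% and 1.15%. The tag with 1 added A stood at 5440 TPM in involution and 8022 in lactation. Extension by T alone was 0.928% in involution (0.9015 to 0.955%) and 1.32% in lactation (1.30 to 1.34%), a ratio of 0.705. Of the 263 small RNAs, 98 had a lower share of T extension in involution and 102 a higher one. A difference at or below that of miR-378-3p, -0.388 percentage points, was found in 50, itself included. A fall of that size needs a lactation share at least as large, and the lactation median of the 263 was only 0.405%. Extension by C alone was 0.167% in involution and 0.310% in lactation.

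Not every extension was less frequent in involution. Extension by G alone made up 1.85% of 3p reads in involution (1.81 to 1.89%) and 1.43% in lactation (1.41 to 1.45%), a ratio of 1.30, and the tag with 1 added G stood at 1175 TPM in involution and 955 in lactation. Mixed extensions made up 3.03% in involution and 3.27% in lactation. Most of these were A followed by T, at 2.07% of 3p reads in involution (2.03 to 2.11%) and 2.20% in lactation (2.18 to 2.23%). Where 2 bases were added and the first was A, the second was T in 67.0% of reads in involution and 57.5% in lactation, and A in 23.6% and 30.0%. Tags that began at base 2 were extended more often than those that began at base 1: 26.9% of them were longer in involution and 35.8% in lactation, against 14.4% and 18.5% of the tags that began at base 1. The lower share in involution held for both starts.

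**Figure D3:**
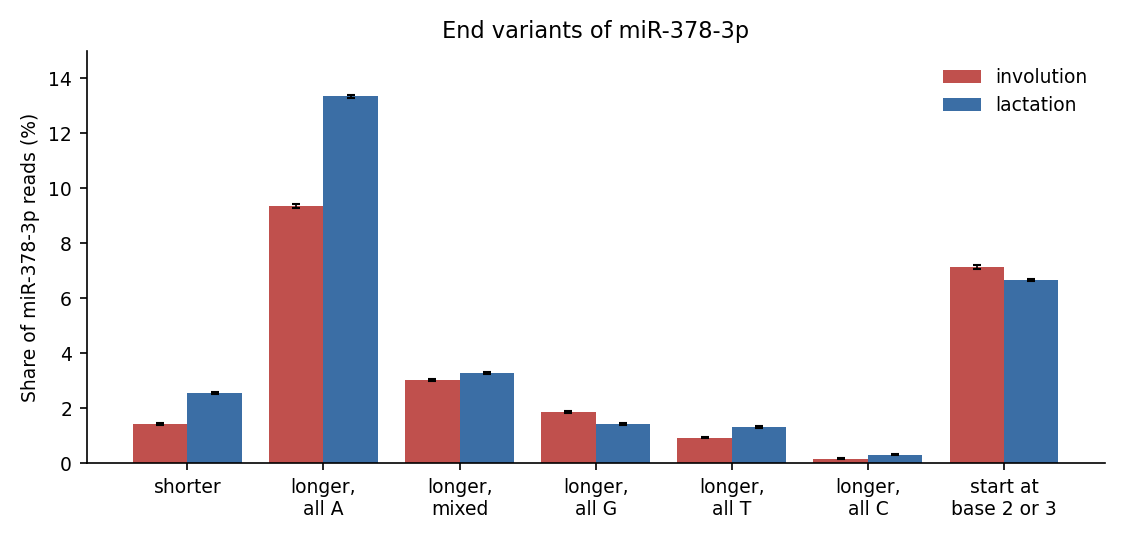
The share of miR-378-3p reads (y axis, percent) is shown for each class of end variant (x axis) in involution and lactation, with 95% Clopper-Pearson intervals as error bars. Extension by A alone is the tallest class and is lower in involution (9.36%) than in lactation (13.3%), while extension by G alone and starts at base 2 or 3 are higher in involution.

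The difference in A extension was set against other small RNAs. Among the 263 with at least 1000 reads in both libraries, the share of reads extended by A alone in miR-378-3p ranked 52 from the highest in involution and 36 in lactation, while the medians were 1.22% and 0.611%. The share was lower in involution for 103 of the 263 and higher for 135. The difference of miR-378-3p was -3.99 percentage points, and 16 of the 263, itself included, had a difference at or below that. A fall of that size needs a lactation share at least as large. With a lactation median of 0.611%, most of the 263 could not show it, so the count is no measure of rarity. The end of a leading tag need not be the end of the gene's mature product, so these shares mix encoded and added bases.

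**Figure D4:**
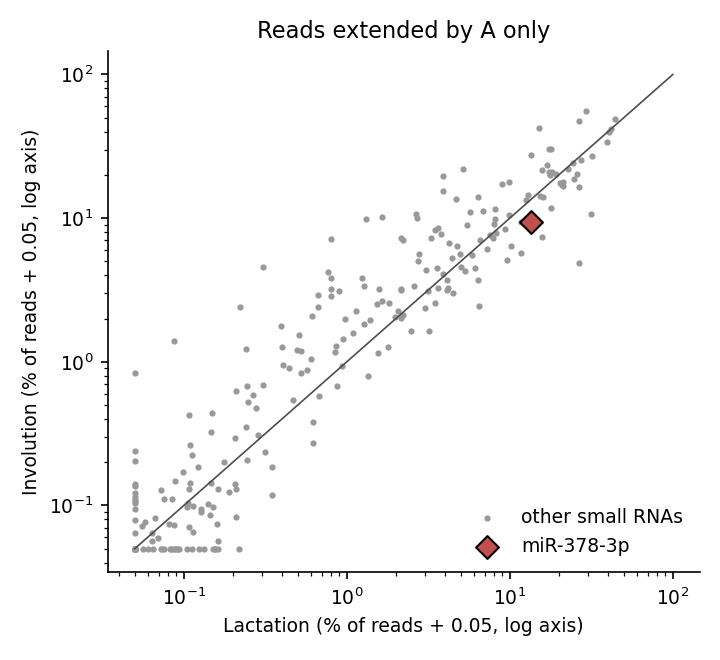
The share of reads extended by A alone is plotted in involution (y axis) against lactation (x axis), in percent with 0.05 added, on log axes, for 263 small RNAs. miR-378-3p (diamond) lies below the line of equality, at 9.36% in involution and 13.3% in lactation.

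Tags that matched the arm to short of its end and then carried other bases fell outside the member rule and were counted apart. They are called trimmed and extended, though a substitution near the end would give the same tags. Those that matched at least 16 bases and then carried 1 to 3 other bases numbered 1.46 per 100 member reads in involution (1.43 to 1.498) and 2.95 in lactation (2.92 to 2.98). Most lacked 1 base and carried A, at 0.955 per 100 in involution and 2.04 in lactation. With them, the order of the stages in A extension was the same as among the members.

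The 5p arm showed a variable 3′ end on few reads. Tags 1 base shorter made up 18 of 75 reads in involution (14.9 to 35.25%) and 34 of 133, or 25.6%, in lactation (18.4 to 33.8%).
5p, 1 base shorter: ctcctgactccaggtcctgtg
5p, last base A: ctcctgactccaggtcctgtgA
The tag with A as its last base, a T22A substitution outside the rule with positions counted from the 5′ end of the mature arm, had 23 reads in involution and 33 in lactation, or 30.7 and 24.8 per 100 member reads. Extension by A alone was found on 7 of 75 reads in involution, or 9.33% (3.84 to 18.3%), and on 0 of 133 in lactation, where the interval reached 2.74%.

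Tags of 22 nt that differed from the mature 3p sequence by 1 base were counted as a share of those tags and the mature tag together. Of the 66 possible substitutions, A16G, counted from the 5′ end with the mature base first, stood out among positions 1 to 21.
A16G: actggacttggagtcGgaaggc
It made up 1.497% in involution (1.46 to 1.53%) and 1.63% in lactation (1.61 to 1.66%), on 5973 and 15638 reads. The other 62 substitutions at positions 1 to 21 had a median of 0.0111% in involution and 0.0145% in lactation and reached at most 0.389% and 0.239%. The 5 other A-to-G substitutions had medians of 0.143% and 0.169%, and at position 16 the other bases stayed at or below 0.0109% in involution and 0.0263% in lactation. Enzymes of the ADAR family deaminate A to inosine, which is read as G. The source of A16G and of the other substitutions at positions 1 to 21 was not tested, nor was the gene that each tag came from.

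A16G was present in the other forms of the arm too. It made up 1.42% of tags that began at base 2 in involution and 1.67% in lactation, with intervals that overlapped those of the mature tag. In tags with 1 added A it was lower, at 0.986% in involution (0.892 to 1.09%) and 0.796% in lactation (0.751 to 0.843%), and in tags 1 base shorter it was 0.652% (0.460 to 0.898%) and 0.879% (0.772 to 0.997%). Tags with A and T or with 2 A added were also lower at both stages. With 1 added G it was 0.857% in involution and 1.55% in lactation (1.37 to 1.74%), where the interval overlapped that of the mature tag. With 1 added T it was 1.36% in involution (0.984 to 1.84%), which also overlapped, and 0.898% in lactation. Among 27 leading tags with at least 10000 reads in both libraries, miR-378-3p ranked 3 in involution and 4 in lactation by the highest A-to-G share at positions 2 to 18. At both stages 2 let-7 sequences, whose relatives are known to differ by single bases, stood above it, and in lactation also a tag with the seed of miR-200b, at 1.44% in involution and 1.86% in lactation. The medians of the other 26 were 0.0481% in involution and 0.0560% in lactation.

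The next most frequent substitution inside the arm was T14G, at 0.389% in involution (0.370 to 0.409%) and 0.239% in lactation (0.229 to 0.249%). In the seed, A6G made up 0.225% in involution and 0.169% in lactation. At the last base C22A made up 1.10% in involution (1.07 to 1.13%) and 2.50% in lactation (2.47 to 2.54%), and C22T 0.351% and 0.695%. These last tags were also counted among the trimmed and extended forms above. Whether they lost a base and gained another or carry a substitution cannot be told apart.

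**Figure D5:**
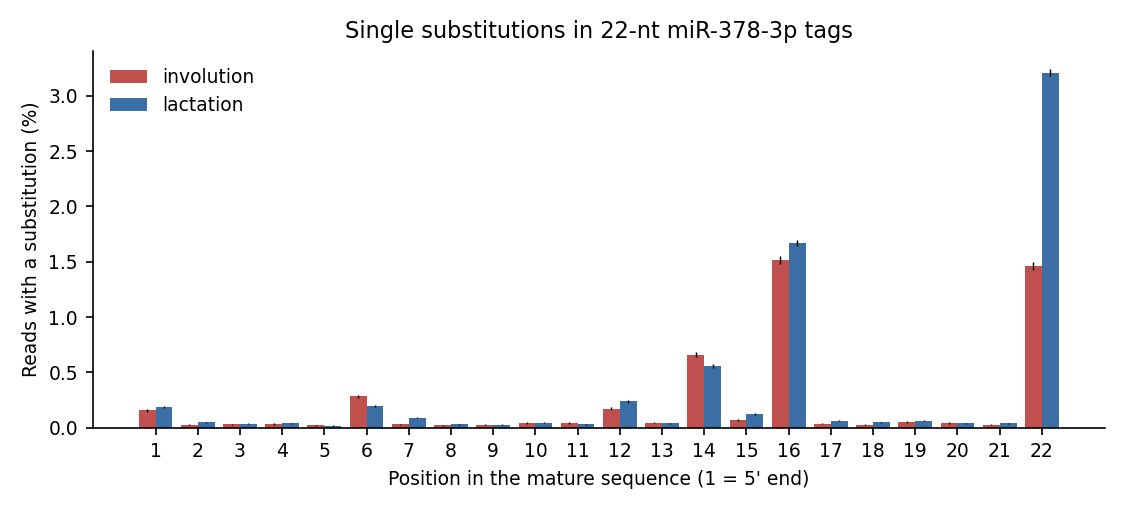
The share of 22-nt miR-378-3p reads with a single substitution (y axis, percent of those reads and mature reads at that position) is plotted by position from the 5′ end (x axis), with 95% Clopper-Pearson intervals. Position 16 stands at about the same height in involution and lactation, whereas position 22 is lower in involution.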

How the data were processed

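Small RNA of 18 to 30 nt was sequenced in 1 library per stage. Per the description the authors deposited, low-quality reads were removed, the 3′ adaptor was trimmed, 5′ adaptor contaminants, short and polyA tags were discarded, and identical reads were collapsed. The deposited values are raw counts of reads per distinct tag, and the deposited filtering logs hold counts of reads per step. Each log was tied to its library by the label letter and an equal clean read total. No source used here names a tool version, a mapping step or a genome build. PCR copies were not marked, so intervals cover counting error only.

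The planned table of goat miRNA sequences was not used here. Each arm of miR-378 was instead recognised by its seed, bases 2 to 8 (CTGGACT for 3p and TCCTGAC for 5p, known from mammalian miR-378), as the most abundant tag with that seed. Other small RNAs were grouped from the tags by the member rule, and families were named by a 7-base seed alone, so a name covers all its relatives. A leading tag 1 substitution from one at least 20 times more abundant was set aside, which removed 1759 of 7976. Groups can still hold fragments and tags with extra upstream bases.

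Levels are tags per 1000000 clean tags of the library, written TPM. Intervals are 95%: exact Poisson for levels, Clopper-Pearson for shares, conditional Clopper-Pearson for ratios. A count of 0 allows up to 3 reads, or 0.406 TPM in involution and 0.166 in lactation. Members, lists and rules were chosen with earlier results of these data known. Named small RNAs are both arms, the neighbours in level that the ranking allowed (only 1 lies above miR-378-3p), the 3 nearest in ratio, and members of the metabolic lists by level or call, here as seed families; marker lists are given as counts and sums. The procedure was tested on simulated counts with counting error alone, the error that the intervals assume. That test therefore cannot speak to spread between animals or preparations. Software was Python 3.11.15, numpy 2.4.6, scipy 1.17.1, R 4.3.3, edgeR 4.0.16 (TMM factors) and ViennaRNA 2.7.2.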

Additional observations from a re-analysis of the deposited data

How the results depend on the processing

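No paired analysis was possible because each stage has 1 library. Scalings over a reference miRNA table were not run for want of that table, and 3 scalings over the small RNAs grouped here were chosen after seeing the data. The miR-378-3p ratio of 0.961 turned to 1.02 with identical tags alone and was 0.942 by the first 18 bases, 0.947 with 1 mismatch allowed outside the first 8 bases, 0.984 when scaled to tags of all 2058 small RNAs, 0.772 with TMM and 0.765 with median-of-ratios factors. It kept under 2-fold in all of them. The miR-378-5p ratio ran between 1.10 and 1.47 over 8 alternatives, inside the interval of the main value, and under the TMM and median-of-ratios scalings its own interval included 1. The 5p share per 1000 of both arms was, with identical tags alone, 0.107 in involution and 0.0744 in lactation, by the first 18 bases 0.196 and 0.125, and with 1 mismatch 0.193 and 0.132. With trimmed and extended tags included, shorter tags made up 2.84% in involution and 5.33% in lactation, A extension 10.2% and 14.99%, and T extension 1.22% and 1.83%. Without the level limit 2475 small RNAs were higher and 801 lower in involution, and with identical tags alone 433 were higher. Of the alternative values, 27 stayed within counting error or within 1.5 times a count and 21 moved. Depth limits the 5p arm most, at 75 and 133 reads.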

Other observations

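Some tags carried miR-378-3p with other bases in front and fell outside the member rule. With 1 extra base upstream there were 493 reads in involution, or 66.7 TPM (60.99 to 72.9), and 1078 in lactation, or 59.8 (56.3 to 63.5). The extra base was C in 426 of these in involution and 1070 in lactation. It was A in 64 in involution and 3 in lactation, or 0.127 and 0.00235 per 1000 member reads. An extra A of this kind was more frequent in involution in 24 of the other 26 leading tags with at least 10000 reads in both libraries. The medians were 2.60 per 1000 in involution and 0.0198 in lactation, so miR-378-3p shared the direction at a low level. The direction was not particular to A: an extra C was more frequent in involution in 21 of the 26, T in 21 and G in 18.

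Tags that ran more than 3 nt past the mature 3p end numbered 110 in involution, or 14.9 TPM (12.2 to 18.0), and 528 in lactation, or 29.3 (26.8 to 31.9). Tags with the first 18 bases of the arm preceded by 3 or more bases numbered 12 and 27.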
